A study of Mus musculus with 7 samples.

Results

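The mitochondrial ribosomal proteins described here are the mouse genes whose array symbol is Mrpl or Mrps followed by a number. Among 39429 non-control probes of the microarray, 95 probes carried such a symbol, for 75 genes. A probe was kept when the scanner software called it well above background on at least 3 arrays of 1 group, and 93 probes of 73 genes passed. The brightest probe stood for each gene, so that 44 Mrpl genes and 29 Mrps genes were followed among the 17477 gene names with a tested probe. The pair left out was Mrpl35, well above background on 2 EXO-Post BSA arrays and 1 EXO-Post Palm array, and Mrpl21, well above background on 1 EXO-Post BSA array and on 0 EXO-Post Palm arrays. No member lay just inside that limit, since 71 of the 73 were well above background on all 7 arrays and the other two on 6.

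C2C12 is a mouse skeletal muscle cell line that grows as myoblasts and fuses into myotubes. Donor C2C12 cells had been given 0.5 mmol/l palmitate, a saturated fatty acid, or albumin alone, and exosomes (small secreted vesicles) were collected from them after palmitate had been removed. Fresh recipient C2C12 cells received one or the other exosome preparation for 24 h, giving 4 EXO-Post BSA arrays and 3 EXO-Post Palm arrays, each labelled from 0.1 µg of RNA and described by the labels as biological replicates. All recipient cells had therefore been exposed to exosomes, and recipient cells without exosomes were not analysed here. The labels call the recipient cells myoblasts and the study's methods call them myotubes. All 12 myotube markers examined, such as Acta1, Myh3 and Ckm, were well above background on every array. Of the 8 myoblast markers 7 were, with Myf5 the exception. Markers of other cell types were also above background, with 5 to 6 of 6 fibroblast markers, 3 to 6 of 7 macrophage and leukocyte markers, 2 of 5 endothelial markers and 0 to 5 of 5 adipocyte markers depending on the array. The cell line tag in the labels changed its number from sample to sample, and all samples were taken as C2C12 as in the methods.

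Mitochondria keep their own ribosome, which makes the few respiratory chain and ATP synthase subunits that mitochondrial DNA encodes. Its RNAs come from mitochondrial DNA, but all of its proteins are encoded in the nucleus, translated in the cytosol and imported. The large subunit forms peptide bonds and releases the new chain towards the inner membrane, and the small subunit binds the mRNA and decodes it. Symbols do not always tell the subunit: Mrps30 and Mrps18a were found in the large subunit in structures of the mammalian particle, and Mrps36 is a component of the 2-oxoglutarate dehydrogenase complex. Muscle relies strongly on respiration.

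Sequences are shown for the members to which the comparison returned most often. Mrpl44, Mrpl51, Mrpl28 and Mrps27 were the 4 members whose 2 groups of arrays did not overlap, and their promoter windows are given from RefSeq (build GRCm38.p6, 250 bases before to 50 bases after the start site, gene strand). Capitals mark CCGGAAG, the core bound by ETS factors such as GABP, GCGCA and GCGC set 1 base apart, the paired half-sites bound by NRF1, and AAGATGGC, the core bound by YY1, each searched on both strands. The windows lie at chr1:79775768-79776067 (plus strand) for Mrpl44, chr6:125191950-125192249 (plus) for Mrpl51, chr17:26123253-26123552 (plus) for Mrpl28 and chr13:99344536-99344835 (plus) for Mrps27.
Mrpl44: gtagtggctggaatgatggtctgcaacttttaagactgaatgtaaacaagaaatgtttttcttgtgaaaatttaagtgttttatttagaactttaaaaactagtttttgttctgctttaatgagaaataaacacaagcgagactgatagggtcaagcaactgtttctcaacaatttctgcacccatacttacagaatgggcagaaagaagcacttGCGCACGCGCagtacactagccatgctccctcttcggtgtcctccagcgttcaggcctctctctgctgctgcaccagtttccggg
Mrpl51: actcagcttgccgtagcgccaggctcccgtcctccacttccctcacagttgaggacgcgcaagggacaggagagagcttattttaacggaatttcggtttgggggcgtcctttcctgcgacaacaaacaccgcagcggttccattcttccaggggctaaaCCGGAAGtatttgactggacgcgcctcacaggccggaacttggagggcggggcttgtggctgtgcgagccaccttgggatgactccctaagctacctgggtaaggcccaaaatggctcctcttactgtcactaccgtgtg
Mrpl28: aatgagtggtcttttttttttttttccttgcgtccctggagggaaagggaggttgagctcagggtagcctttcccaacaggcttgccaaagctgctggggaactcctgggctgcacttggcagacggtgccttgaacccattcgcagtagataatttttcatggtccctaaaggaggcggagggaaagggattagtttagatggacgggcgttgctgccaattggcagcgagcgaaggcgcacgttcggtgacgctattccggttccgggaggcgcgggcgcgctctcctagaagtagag
Mrps27: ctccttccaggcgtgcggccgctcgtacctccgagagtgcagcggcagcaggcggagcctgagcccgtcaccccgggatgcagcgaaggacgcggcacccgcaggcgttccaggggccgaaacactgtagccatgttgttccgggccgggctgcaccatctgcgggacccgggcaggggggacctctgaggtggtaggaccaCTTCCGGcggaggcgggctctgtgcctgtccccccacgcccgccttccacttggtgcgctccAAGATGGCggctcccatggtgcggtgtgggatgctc
Mrpl44 held the NRF1 letters 35 bases before the start site, and Mrpl51 held the ETS core 90 bases before it. Mrps27 held the ETS core on the opposite strand 48 bases before the start site and the YY1 core from base 15 after it. None of the 3 motifs was found in the Mrpl28 window, which says only that these letters are not in it.

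Across the family, 64 of the 73 members had a promoter entry, with 70 windows in all. The ETS core was found in 23 member windows (32.9%), compared with 8.86% of all 32851 windows and 11.6% of the 21263 windows of protein-coding genes. The NRF1 letters were in 12 member windows (17.1%, against 4.60% of all windows and 6.38% of protein-coding windows). The YY1 core was in 10 (14.3%, against 2.75% and 3.05%). At least 1 of the 3 was present in 38 member windows (54.3%), in 14.7% of all windows and in 18.9% of protein-coding windows. The TATA box (TATAAA) was in 5 member windows (7.14%), against 13.6% of all windows and 12.6% of protein-coding windows. The CCAAT box (CCAAT) was in 29 (41.4%, against 37.4% and 38.2%). The E-box CACGTG was in 10.0% of member windows, 7.15% of all windows and 7.84% of protein-coding windows. Its 7 member windows belonged to 5 of the 64 genes, because overlapping windows of Mrpl2 held the same site and were counted separately. The cAMP element TGACGTCA was in 2.86%, 1.79% and 2.23%. Member windows had a median GC content of 58.5%, compared with 52.7% for all windows and 56.3% for protein-coding windows. No adjustment for GC content was made. These matches describe letters in a fixed window and give no information on binding in these cells. Members without an entry were Mrpl4, Mrpl13, Mrpl15, Mrpl19, Mrpl38, Mrpl54, Mrps28, Mrps34 and Mrps35.

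Each array value rests on hybridisation to 60-base probes. Those shown are the probes of 2 of the members whose groups did not overlap, and of Mrps11 and Mrps36, for which 1 EXO-Post BSA array stood apart from the others. By the coordinates of the scanner files (build mm9), the Mrpl28 probe matches chr17:26261526-26261585 on the plus strand and the Mrpl51 probe chr6:125143362-125143421 on the plus strand. The Mrps11 probe spans chr7:85933622-85935544 (plus) and the Mrps36 probe chr13:101506215-101509014 (minus), so that these last are split over an intron. No base is capitalised, since the whole oligonucleotide hybridises.
Mrpl28 probe: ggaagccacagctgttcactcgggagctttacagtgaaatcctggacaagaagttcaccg
Mrpl51 probe: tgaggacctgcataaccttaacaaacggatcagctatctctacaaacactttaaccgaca
Mrps11 probe: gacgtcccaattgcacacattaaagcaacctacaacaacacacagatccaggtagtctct
Mrps36 probe: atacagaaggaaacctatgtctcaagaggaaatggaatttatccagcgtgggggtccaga

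Messenger RNA levels of the mitochondrial ribosome differed little between recipient cells given the exosomes of palmitate-treated and of BSA-treated donors. None of the 73 members passed an adjusted p of 0.05 in the limma comparison across all tested probes, while 115 of 21589 probes did (0.533%), of which 100 were higher (0.463%) and 15 lower (0.0695%) in EXO-Post Palm. The smallest adjusted p of a member was 0.432, for Mrpl44. At an unadjusted limma p under 0.05 the count was 1 of 73 (1.37%), compared with 2169 of all tested probes (10.0%). The methods' t-test on the same values gave 5 of 73, against 9.76% of all tested probes. Members are the brightest probe of each gene, whereas all tested probes include dimmer and repeated probes. With only probes well above background on all 7 arrays, limma gave an unadjusted p under 0.05 for 2 of 71 members and 11.6% of 17717 probes. The groups of arrays did not overlap for 4 members (5.48%), 2 higher and 2 lower, against 11.3% of all tested probes (5.40% higher and 5.87% lower).

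The log2 fold change (EXO-Post Palm minus EXO-Post BSA) was positive for 36 members and negative for 37, with a median of -0.0089, compared with a median of -0.02 over all tested probes, of which 47.3% were positive. The split depended on the scaling. With each array set against the 75th percentile of the probes well above background on all arrays, 45 of 73 members were positive (median 0.05, against 0.03 over all tested probes), and with the median of each array 31 of 73 were (median -0.07, against -0.08). Among the 44 Mrpl genes the median was -0.02 (21 positive, 23 negative), and the middle 50% ran from -0.31 to 0.14. For the 29 Mrps genes it was 0.0082 (15 positive, 14 negative), and the middle 50% ran from -0.09 to 0.23. Assigning Mrps30 and Mrps18a to the large subunit and setting Mrps36 apart gave medians of -0.0073 for 46 genes and -0.01 for 26 genes.

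The precision of these estimates can be stated. The 95% interval of the log2 fold change lay wholly between -1 and 1, that is within a doubling or halving, for 58 of 73 members (79.5%), compared with 59.6% of all tested probes. The median standard error was 0.24 for members and 0.27 for all probes, and the median absolute log2 fold change was 0.19 and 0.25. The arrays of 1 group were also closer to each other for members, with a median SD of 0.26 in EXO-Post BSA and 0.24 in EXO-Post Palm, compared with 0.33 and 0.32 over all tested probes. Signal moved with this: 97.3% of members and 82.1% of all tested probes were well above background on all arrays, and its part in the narrower intervals was not tested. For the other 15 members a 2-fold difference stayed within the interval.

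**Figure D1:**
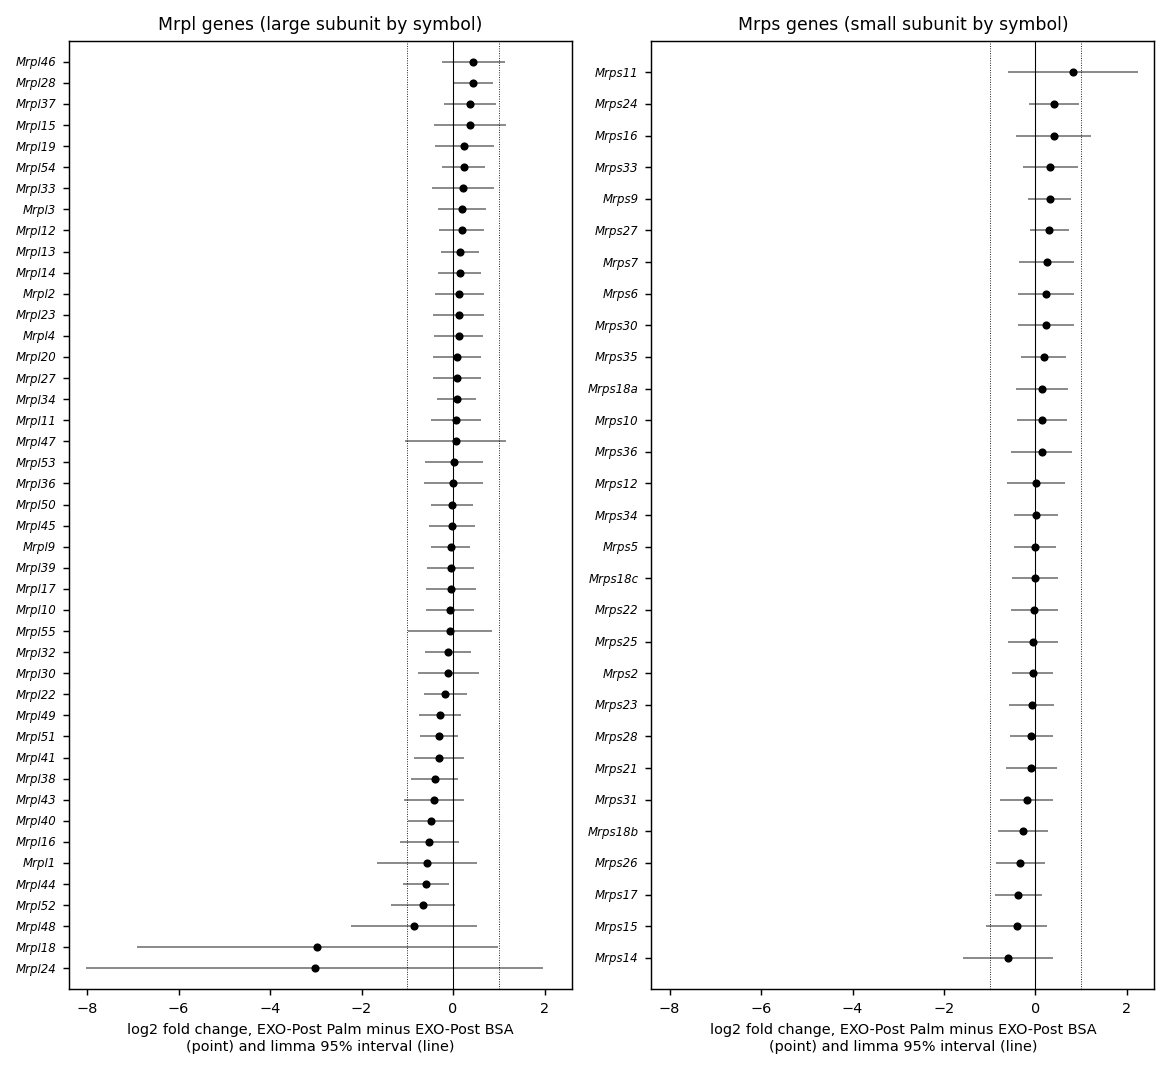
Log2 fold change of each of the 73 members (points) with its limma 95% interval (lines), EXO-Post Palm minus EXO-Post BSA, for the 44 Mrpl genes (left) and the 29 Mrps genes (right). Dotted lines mark -1 and 1. Most points lie close to 0, and Mrpl18 and Mrpl24, near -3, have the widest intervals.

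The arrays were then examined one by one, as the median over members of the log2 signal minus the EXO-Post BSA mean of that member. Mrpl genes had medians of 0.05, -0.01, 0.02 and -0.00031 on the EXO-Post BSA arrays in order of replicate number, and of -0.10, 0.08 and 0.06 on the EXO-Post Palm arrays. Mrps genes had medians of 0.03, -0.0037, 0.11 and -0.12, and then -0.04, 0.11 and 0.16. Within EXO-Post Palm, replicate 1 was below 0 and the other two above it for both sets, so that no common direction distinguished the groups. Single members were more scattered on some arrays than on others. A distance of over 0.5 from the EXO-Post BSA mean was seen for 19 members on EXO-Post Palm replicate 3 (9 above, 10 below) and for 14 of the 72 measured on EXO-Post Palm replicate 2 (5 above, 9 below), compared with 4 to 8 members on each of the other arrays. The mean of EXO-Post BSA contains the EXO-Post BSA arrays themselves, which keeps them nearer to it. EXO-Post Palm replicates 3 and 2 also had the lowest 75th percentiles of processed signal, 549 and 648, against 726 to 1621 elsewhere. The part of signal in the scatter was not tested. Counts were made for members alone, so they cannot tell scatter of the members from scatter of all probes on those arrays.

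**Figure D2:**
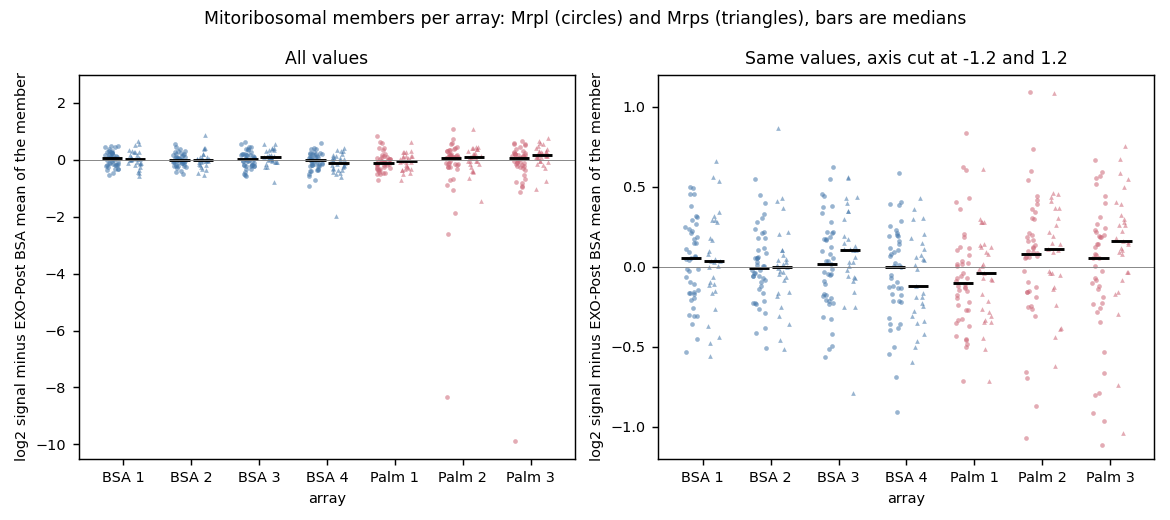
Log2 signal of every member minus its EXO-Post BSA mean on each of the 7 arrays (EXO-Post BSA in blue, EXO-Post Palm in red; circles, Mrpl; triangles, Mrps; bars, medians). The left panel holds all values and the right panel the same values within 1.2 of 0. Medians stay between -0.12 and 0.16 on every array, and the lowest points are Mrpl24 on EXO-Post Palm replicate 3 and Mrpl18 on EXO-Post Palm replicate 2.

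Mrpl44, a large-subunit protein with a ribonuclease III fold in which inherited variants cause a disease of mitochondrial translation, had the smallest p. Its log2 signal relative to the array's 75th percentile was 1.03, 0.55, 0.93 and 0.55 in EXO-Post BSA and 0.05, 0.07 and 0.42 in EXO-Post Palm. All 3 EXO-Post Palm arrays were thus below all 4 EXO-Post BSA arrays. The means were 0.77 ± 0.25 (SD, n = 4) and 0.18 ± 0.21 (SD, n = 3), a log2 fold change of -0.59 ± 0.22 (SE), with a 95% interval of -1.09 to -0.08. The limma p was 0.0278 before and 0.432 after adjustment over all tested probes, and the two-sided exact permutation p was 0.0286, the smallest that 35 splits of the arrays allow. Within the slides that held both groups, the difference was -0.74 on slide 1 and -0.13 on slide 3, and with slide as a fixed block no member had an unadjusted p under 0.05.

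Mrpl28, a large-subunit protein with a bacterial counterpart, had the smallest p among members with a positive difference. Its log2 signal was 1.28, 1.38, 1.55 and 1.28 in EXO-Post BSA and 1.73, 1.72 and 1.96 in EXO-Post Palm. The groups did not overlap, and the log2 fold change was 0.43 ± 0.19 (SE), with a limma adjusted p of 0.505 and an exact permutation p of 0.0286. It was 0.40 within slide 1 and 0.69 within slide 3.

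Mrps27 is a small-subunit protein of the pentatricopeptide repeat type. It read -0.87, -0.67, -0.79 and -0.76 in EXO-Post BSA and -0.64, -0.41 and -0.38 in EXO-Post Palm. Here too every EXO-Post Palm value was above every EXO-Post BSA value, with replicate 1 close to the highest EXO-Post BSA value, and the log2 fold change of 0.30 ± 0.19 (SE) had a limma adjusted p of 0.644. Mrpl51, a subunit of the large particle without a bacterial counterpart, read 4.55, 4.43, 4.61 and 4.35 in EXO-Post BSA and 4.16, 4.18 and 4.20 in EXO-Post Palm. Its groups were separate in the opposite direction, with a log2 fold change of -0.31 ± 0.18 (SE), a limma adjusted p of 0.624 and an exact permutation p of 0.0571. The choice of Mrpl51 was made after its values were seen, as it was not among the 6 smallest p in its direction.

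The next members with negative differences were Mrpl40, Mrpl52, Mrpl16, Mrpl38 and Mrpl18. Mrpl40, of the central protuberance, ranged from 1.84 to 2.27 in EXO-Post BSA and from 1.40 to 1.94 in EXO-Post Palm, a log2 fold change of -0.48 ± 0.22 (SE; limma adjusted p = 0.521). Its second probe gave -0.08. Mrpl52 ranged from 4.39 to 5.49 and from 3.87 to 4.59, a log2 fold change of -0.65 ± 0.31 (SE; limma adjusted p = 0.535). In both the groups overlapped. On slide 1 and slide 3, the differences were -0.13 and -0.87 for Mrpl40 and -0.35 and 0.01 for Mrpl52.

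Mrpl16, which lies near the peptidyl transferase centre, read 2.15, 2.06 and 1.21 in EXO-Post Palm, against 2.11 to 2.62 in EXO-Post BSA (log2 fold change -0.52 ± 0.28, SE; limma adjusted p = 0.592). Mrpl38, of the central protuberance, read 0.68, 0.57 and 0.02 against 0.62 to 0.93 (log2 fold change -0.40 ± 0.23, SE; limma adjusted p = 0.604). In both of these, EXO-Post Palm replicate 3 was the lowest array by a wide margin. Without it the log2 fold changes were -0.22 and -0.20.

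The remaining members with positive differences were Mrps24, Mrps9, Mrpl46 and Mrpl37. Mrps24 ranged from 1.69 to 2.54 in EXO-Post BSA and from 2.39 to 2.65 in EXO-Post Palm (log2 fold change 0.40 ± 0.24, SE; limma adjusted p = 0.627). Mrps9, whose bacterial counterpart lies in the head of the small subunit, ranged from 0.34 to 0.80 and from 0.67 to 0.96 (log2 fold change 0.31 ± 0.21, SE; limma adjusted p = 0.66). The groups overlapped in each case. For Mrpl46 the log2 fold change was 0.45 ± 0.30 (SE) and for Mrpl37 0.37 ± 0.25 (SE), with limma adjusted p of 0.665 and 0.666. Across slides 1 and 3 the differences were 0.04 and 0.96 for Mrps24, 0.37 and -0.13 for Mrps9, 0.79 and 0.52 for Mrpl46, and 0.22 and -0.09 for Mrpl37.

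**Figure D3:**
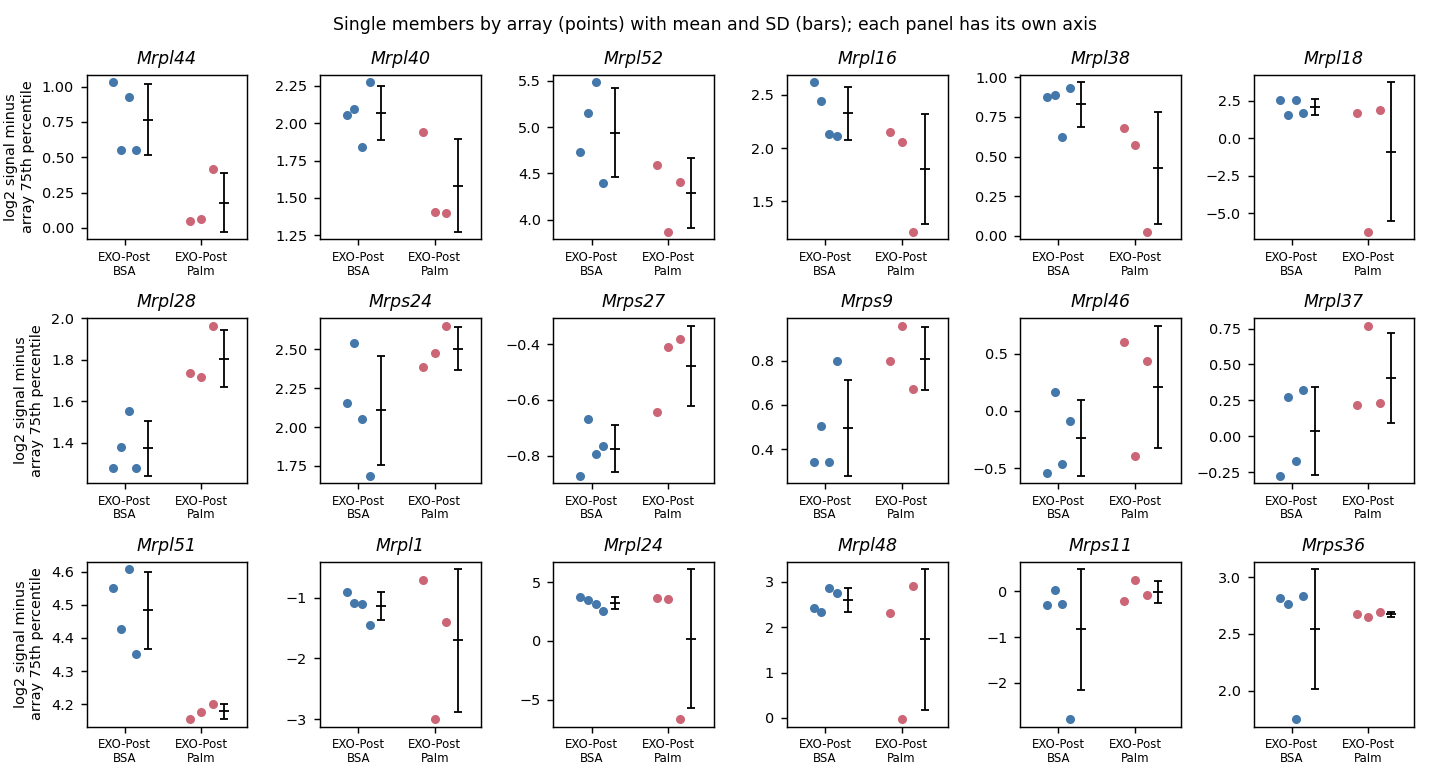
Log2 signal relative to the array's 75th percentile on each array (points) with mean and SD (bars) for 18 members, EXO-Post BSA in blue and EXO-Post Palm in red; each panel has its own axis. The top row and the middle row hold the 6 members with the smallest p in each direction, and the bottom row holds Mrpl51 and members for which 1 array stood apart. Groups are separate for Mrpl44, Mrpl28, Mrps27 and Mrpl51.

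The 2 members with the largest fitted differences rested on 1 spot each. Mrpl18, the counterpart of the bacterial protein that contacts 5S rRNA, read 2.54, 1.57, 2.54 and 1.69 in EXO-Post BSA and 1.71, -6.25 and 1.89 in EXO-Post Palm. Its median pixel intensity was 60 on EXO-Post Palm replicate 2, compared with 1247 to 4774 on the other arrays, and the spot was not well above background but carried no outlier mark. The log2 fold change was -2.97 ± 1.73 (SE) with that array and -0.28 ± 0.35 (SE) without it. Mrpl24, near the polypeptide exit tunnel, read 3.71, 3.52, 3.10 and 2.52, and then 3.62, 3.60 and -6.66. Its intensity was 59 on EXO-Post Palm replicate 3, against 4346 to 22014 elsewhere, and its log2 fold change turned from -3.03 ± 2.20 (SE) to 0.40 ± 0.35 (SE) without that array. Each of these genes had 1 probe and 1 spot per array, so that no second spot could be compared.

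Smaller departures of the same kind were seen for 4 more members, picked after their values were seen. Mrpl48 read -0.02 on EXO-Post Palm replicate 2, against 2.32 to 2.90 on the other arrays, and its log2 fold change was -0.86 with that array and 0.02 without it. Mrpl1 read -3.00 on the same array, against -1.45 to -0.71 elsewhere (log2 fold change -0.57, and 0.08 without it). Mrps11 read -2.79 on EXO-Post BSA replicate 4, against -0.30 to 0.25 elsewhere, and its log2 fold change was 0.81 with and 0.16 without that array. Mrps36 read 1.75 on EXO-Post BSA replicate 3, against 2.65 to 2.84 elsewhere (log2 fold change 0.13, and -0.13 without it). In addition, Mrpl20 on EXO-Post BSA replicate 4, Mrpl32 on EXO-Post BSA replicate 3 and Mrps16 on EXO-Post Palm replicate 2 had no value, because their only spot was marked uneven or outlying, and their fits used the other 6 arrays.

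By role in the large subunit, the proteins around the peptidyl transferase centre gave log2 fold changes of 0.13 for Mrpl2, 0.19 for Mrpl3 and 0.08 for Mrpl27, besides -0.52 for Mrpl16. The stalk that recruits translation factors is built on Mrpl10, Mrpl11 and Mrpl12, with log2 fold changes of -0.07, 0.07 and 0.19. Mrpl12 carries the factor-binding domain, and its values were 3.31 to 3.83 in EXO-Post BSA and 3.63 to 3.92 in EXO-Post Palm. None of these 7 genes passed the test.

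Around the exit tunnel, Mrpl22 gave -0.17, Mrpl23 gave 0.12 and Mrpl45, which anchors the ribosome to the inner membrane, gave -0.02. The central protuberance, the contact to the small subunit at the top of the particle, was the role list with the lowest median, -0.48, and 4 of its 5 members had negative log2 fold changes. These were Mrpl18, Mrpl38, Mrpl40 and Mrpl48, whereas Mrpl46 was positive. None passed the test, and the values of Mrpl18, Mrpl38 and Mrpl48 each depended on 1 EXO-Post Palm array as given above. The large-subunit proteins with Mrps symbols gave 0.23 for Mrps30 and 0.14 for Mrps18a.

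In the small subunit, Mrps12, the protein of the decoding site, ranged from 2.66 to 3.40 in EXO-Post BSA and from 2.52 to 3.38 in EXO-Post Palm, with a log2 fold change of 0.02 ± 0.28 (SE). Small-subunit genes in which inherited variants impair mitochondrial translation gave log2 fold changes of -0.06 for Mrps2, 0.24 for Mrps7, -0.61 for Mrps14, 0.40 for Mrps16, -0.02 for Mrps22, -0.09 for Mrps28 and 0.0082 for Mrps34. With Mrpl3, Mrpl12 and Mrpl44, this disease list held 10 members, of which 5 were positive and 5 negative. Of these 10, Mrps14 varied most within groups, from 0.69 to 1.86 in EXO-Post BSA and from -0.23 to 1.52 in EXO-Post Palm.

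Members were also divided by ancestry. The 28 measured large-subunit proteins listed with bacterial counterparts had a median log2 fold change of 0.07 (17 positive). The 18 listed as specific to the mitochondrial ribosome had -0.17 (6 positive). As deviations from the EXO-Post BSA mean, the array medians of these 18 were 0.04, -0.02, 0.11 and 0.00049 in EXO-Post BSA. In EXO-Post Palm they were -0.21, -0.16 and 0.07, so that replicate 3 lay within the EXO-Post BSA range. In the small subunit the medians were 0.0050 for 16 proteins listed with bacterial counterparts (8 positive) and -0.04 for 10 listed as specific (4 positive). The lists class Mrps18a and Mrps18b as specific but Mrps18c as having a bacterial counterpart. The median over all tested probes was -0.02, and whether the sets differ was not tested.

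A second tested probe existed for 20 members. The 2 probes of a gene differed by a median of 0.25 in log2 fold change, and for 9 genes they had opposite signs, with no unadjusted limma p under 0.05 in either probe. The widest gap was for Mrps18b, chosen after its values were seen, with -0.27 for the brightest probe and 0.94 for the dimmer one, which read -0.23, -1.94, -0.12 and -0.96 in EXO-Post BSA and 0.02, -0.17 and 0.52 in EXO-Post Palm. Mrps14 gave -0.61 and 0.21, and Mrps36 gave 0.13 and -0.54. The median gap between the probes of a gene was thus above the median absolute log2 fold change of the members, 0.19.

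The rest of the mitochondrial translation apparatus was examined in the same way, and 0 of its genes passed an adjusted p of 0.05. Of the 7 mitoribosomal proteins under other symbols, 4 had positive log2 fold changes (median 0.03), from -0.10 for Gadd45gip1 to 0.48 for Dap3, a GTP-binding protein of the small subunit. The 12 translation factors had a median of 0.12 (8 positive), with 0.37 for Tufm, the elongation factor that delivers aminoacyl-tRNA, and -0.38 for Guf1. The 19 measured synthetases and amidotransferase genes that charge mitochondrial tRNAs had a median of 0.07 (12 positive). Rars2 gave 0.57 (limma adjusted p = 0.427), with 0.72 to 1.24 in EXO-Post BSA and 1.47 to 1.75 in EXO-Post Palm. Ears2 gave -1.30, with -5.81 on EXO-Post Palm replicate 3 and -1.94 to -1.12 on the other arrays.

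The 21 measured assembly and rRNA modification factors had a median of -0.0024 (10 positive). The extremes were 0.52 for Ftsj2, an rRNA methyltransferase, and -0.65 for Noa1, a GTPase, which the array lists under an older clone name. Grsf1, an RNA-binding protein of mitochondrial RNA granules, gave -0.64 (limma adjusted p = 0.367).

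The 13 measured regulators of mitochondrial transcription and biogenesis had a median of -0.17, with 4 positive and 9 negative. Ppargc1a, the coactivator PGC-1α, read -3.32, -3.69, -3.42 and -3.54 in EXO-Post BSA and -4.08, -4.09 and -4.29 in EXO-Post Palm. All 3 EXO-Post Palm arrays were lower, as for 5.87% of all tested probes. The log2 fold change was -0.66 ± 0.19 (SE), with a limma adjusted p of 0.278. The signal was low: its EXO-Post Palm values lay within the range of Mrpl35 (-4.90 to -4.07), which the filter left out. Tfam, which packages mitochondrial DNA and activates its transcription, gave 0.18. Of the factors whose motifs were searched above, Gabpa gave -0.21, Nrf1 0.16 and Yy1 -0.52, none past the adjusted threshold.

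Respiratory chain and ATP synthase subunits of nuclear origin numbered 76, with a median of -0.06, 29 positive and 47 negative, and 0 past the adjusted threshold. The lowest value was -1.12 for Atp5g3 (limma adjusted p = 0.133), a ring subunit of ATP synthase. Atp5g3 had no value on EXO-Post Palm replicate 2, and read 5.81 to 5.99 in EXO-Post BSA and 4.97 and 4.59 on the other two EXO-Post Palm arrays.

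The same arrays showed large differences elsewhere. All 18 measured cell division genes were higher in EXO-Post Palm, with a median log2 fold change of 2.33. This list was known from earlier results of these data, so its size and direction are no new result. Of the 18 genes, 14 had a limma adjusted p under 0.05, against 0.533% of all tested probes. The lowest log2 fold change of the 18 was 1.50. Among mitoribosomal members, the highest log2 fold change was 0.81, for Mrps11, and it was 0.16 without 1 array. Among markers of other cell types, the fibroblast list had a median log2 fold change of 0.48 (5 of 6 positive, summed linear level 117 to 192 in EXO-Post BSA and 129 to 154 in EXO-Post Palm), and the myotube list of -0.15 (11 of 12 negative, 767 to 996 and 701 to 821). For the macrophage and leukocyte list the median was 0.51 (3 of 4 tested genes positive, 7.89 to 18.1 and 6.01 to 7.66), for the myoblast list -0.13 (2 of 7 positive, 297 to 363 and 216 to 290), for 2 endothelial genes -0.05 (4.16 to 5.29 and 3.06 to 6.21) and for the 1 adipocyte gene tested -0.35 (list sums 0.131 to 0.233 and 0.125 to 0.169). The part of these lists in the values above was not tested. In bulk RNA, a change in the cells present and a change in RNA per cell cannot be told apart.

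**Figure D4:**
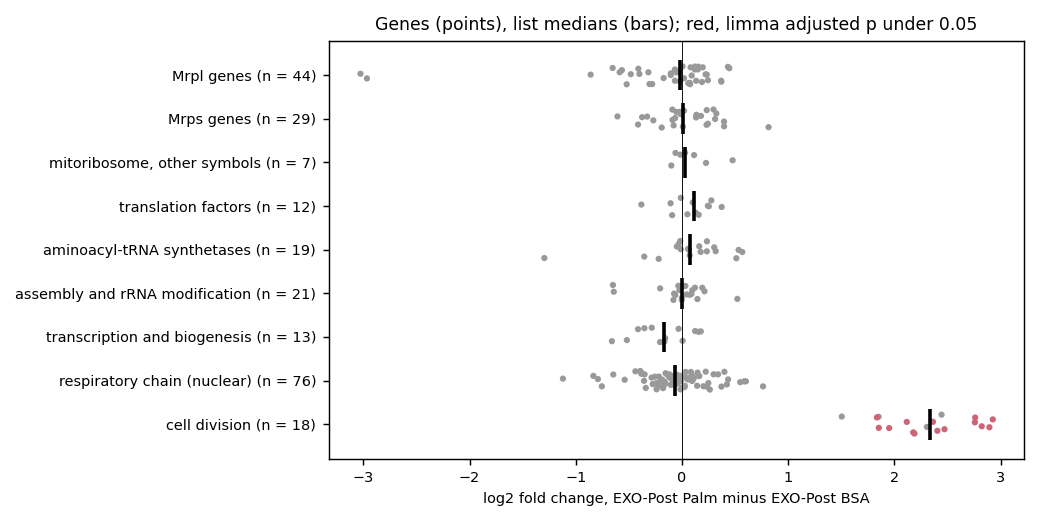
Log2 fold change (EXO-Post Palm minus EXO-Post BSA) of each measured gene (points) in the Mrpl and Mrps sets and in 7 other lists, with list medians (bars) and genes with a limma adjusted p under 0.05 in red. Medians of the mitochondrial lists run from -0.17 to 0.12, and red points occur among the cell division genes.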

How the data were processed

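RNA of recipient C2C12 cells was labelled with Cy3 and hybridised to Agilent mouse 4x44K v2 arrays by the authors, who deposited scanner files with spot intensity and a table of log2 values. Feature Extraction 9.1 and limma are named in the submitters' processing notes, while file headers give versions 10.7.3.1 and 11.5.1.1 (EXO-Post BSA replicate 3). Deposited processed intensity values were taken to log2 and set against each array's 75th percentile over 43020 non-control spots. Spots marked uneven or outlying were left out, and no spot was saturated. Probes well above background (a deposited flag) on at least 3 arrays of 1 group, 21589 of 39429, were fitted with limma 3.58.1 in R 4.3.3, after tests on simulated data, with Benjamini-Hochberg adjustment.

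Members and gene lists were chosen with earlier results of these data known. Members named are the 6 with the smallest p in each direction, those of structural or disease role lists, and those at the filter's edge; of other lists, the extremes, except 1 that is not reported here. No member met a further rule for probes of opposite sign, which asked for an unadjusted p under 0.05 in either; Mrps18b was chosen after its values were seen. The 4 slides were arranged with EXO-Post BSA replicates 1 and 2 and EXO-Post Palm replicate 1 on slide 1, EXO-Post BSA replicate 4 and EXO-Post Palm replicate 3 on slide 3, and the other two alone, which precludes a full separation of slide and group. Well above background were 48.5 to 70.3% of probes per array. The deposited log2 table of the authors was joined to spots by row order (rank correlation with intensity at least 0.994) and used as an alternative; its scale was read as log2 from the values, and its normalization is not given in the sources used here. Normexp used median intensity, as the file of EXO-Post BSA replicate 3 has no mean intensity. The number of arrays limits the precision.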

Additional observations from a re-analysis of the deposited data

Results flagged for a closer look

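In EXO-Post BSA, 3 of the 71 members with values on all 4 arrays had 1 array whose gap to the nearest other was, as a share of the group's range, over Dixon's 95% limit for 4 values; chance alone gives about 5% of groups. Mrps11 read -2.79 on EXO-Post BSA replicate 4, with -0.30 to 0.04 on the other 3 arrays. Mrps36 read 1.75 on EXO-Post BSA replicate 3, with 2.76 to 2.84 on the others. Mrpl38 read 0.62 on EXO-Post BSA replicate 3, with 0.88 to 0.93 on the others, and its log2 fold change was -0.47 without that array. Groups of 3 arrays were not tested in this way, so that Mrpl18, Mrpl24, Mrpl48 and Mrpl1, with 1 low EXO-Post Palm array each, are not among these.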

How the results depend on the processing

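No member had an adjusted p under 0.05 in any of 22 alternatives, by limma or by the methods' t-test. The 12 members named for their p kept the sign of their log2 fold change in every alternative run. They were picked by p on these same values, which makes a kept sign likely, so it is no separate support. On slide 3 alone, with 1 array per group, the sign turned for Mrpl18 (0.20), Mrpl52 (0.01), Mrps9 (-0.13) and Mrpl37 (-0.09). The other named members kept their sign there. With normexp and quantile normalization 5 of 73 members had an unadjusted p under 0.05 (Mrpl28, Mrpl38, Mrpl44, Mrpl52 and Mrps24), against 11.8% of all probes; the methods' t-test gave 5 (Mrpl28, Mrpl40, Mrpl44, Mrpl51 and Mrps27). The adjusted p of Mrpl44 was 0.263 to 1.00 and that of Mrpl28 was 0.123 to 1.00 over the alternatives. Over all tested probes the count past the threshold, 115, was 0 without a probe filter, 0 with a replicate block and 0 with the methods' t-test after Benjamini-Hochberg adjustment, 181 with slide as a random block and 173 with trended and robust variance. With 1 array left out it was 0 to 202, the lowest values being 0 (EXO-Post BSA replicate 1 left out) and 7 (EXO-Post Palm replicate 1) and the highest 202 (EXO-Post Palm replicate 2). It was 44, 21 and 68 on leaving out EXO-Post BSA replicates 2, 3 and 4, and 27 on leaving out EXO-Post Palm replicate 3. The small-subunit median of 0.0082 became 0.14 with the authors' processed values, 0.12 with normexp and quantile normalization and 0.11 with slide as a fixed block, and -0.0048 to 0.13 with 1 array left out; the cause was not tested. The large-subunit median ran from -0.08 to 0.04 over all alternatives. Setting to missing the only spot of a probe that lay at background on 1 array, an alternative chosen after seeing the data, gave 160 probes and 0 members past the threshold and a log2 fold change of 0.40 for Mrpl24.

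Deviations of same-numbered arrays from their group means had correlations of 0.12, -0.15 and -0.15. The sample titles carry no number shared between the groups, so the replicate numbers used here are not known to mark pairs. Each group mean rests on few arrays, so these correlations cannot decide whether the numbers pair arrays. With 7 arrays, a 2-fold difference could not be resolved in 15 of 73 members, and slide and group are partly confounded.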
